A study of Mus musculus with 6 samples.

Results

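The tumour necrosis factor (TNF) superfamily of ligands and receptors was examined in cells of the NG2 lineage from the spinal cord of mice. Its members were taken by symbol, as every gene named Tnfsf or Tnfrsf followed by a number or letter, together with Tnf, Lta, Ltb, Ltbr, Fas, Fasl, Cd40, Cd40lg, Cd27, Cd70, Eda, Edar, Eda2r, Ngfr and Relt. This gave 48 of the 38293 genes in the deposited table, of which 19 are ligand genes, 28 are receptor genes and 1, Tnfsf13os, is a noncoding RNA antisense to the ligand gene Tnfsf13. The EAE group held 3 libraries from mice with experimental autoimmune encephalomyelitis, an induced autoimmune attack on central nervous system myelin, and the Control group held 3 libraries from mice without it. Mice of both groups were female and had the genotype NG2-CreERTM:Rosa-tdTomato/+:Cx3cr1GFP/+, so all of them carried an inducible Cre recombinase under the NG2 (Cspg4) promoter, a tdTomato reporter that the recombinase switches on, and green fluorescent protein in an allele of the chemokine receptor gene Cx3cr1. Live tdTomato-positive cells were sorted from whole cords that had been dissociated in the presence of the transcription inhibitor actinomycin D, and their RNA was sequenced in bulk. The NG2 promoter is active in oligodendrocyte precursor cells and also in pericytes and smooth muscle cells of vessels, so each library can hold several cell types. The age of the mice, the time after induction of disease, and whether a library came from 1 animal were not stated by the labels, and the p-values therefore measure the spread between these samples, which may in part be technical.

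TNF superfamily ligands are mostly trimers on the cell surface or shed from it, and they act by bringing their receptors together in the membrane. Death receptors carry an intracellular death domain that can start caspase signalling, whereas the other signalling receptors recruit TRAF adaptors and switch on NF-kB transcription factors. Decoy receptors bind a ligand and do not pass on a death signal. In demyelinating disease the family is known for the contrasting effects of the TNF receptors encoded by Tnfrsf1a and Tnfrsf1b, of which Tnfrsf1b is linked in mice to the renewal of oligodendrocytes.

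Total counts were 26220351, 28734798 and 27848034 reads in EAE replicates 1, 2 and 3 and 25675547, 24190127 and 22141522 reads in Control replicates 1, 2 and 3. The members together took 230 to 459 CPM (counts scaled to equal library size) in EAE libraries and 316 to 335 CPM in Control libraries. Library sizes behind these and all later CPM include the factors of edgeR's trimmed mean of M-values (TMM). EAE replicate 3 stood apart on the first principal component of all tested genes, at -100 against -44.1 and -38.3 in the other EAE libraries, and on the second component Control replicate 3 lay at -80.5, against 48.2 and 46.4 in the other Control libraries. Markers of oligodendrocyte precursors summed to 4781 to 5749 CPM in EAE libraries and 2899 to 4306 CPM in Control libraries, with 2 of 9 tested genes called higher and none at 0. Their median log2 fold change was 0.30. Among them Cspg4, the NG2 gene itself, went the other way, at 169, 160 and 290 CPM in EAE and 356, 375 and 347 CPM in Control. The edgeR test did not call Cspg4 (log2 fold change -0.80 ± 0.23, SE, adjusted p = 0.0764), though DESeq2 called it lower (adjusted p = 0.0139). All 10 pericyte and smooth muscle markers were called lower, at sums of 576 to 981 CPM in EAE and 3688 to 6384 CPM in Control, and all 10 endothelial markers were called lower, at 287 to 372 CPM in EAE and 1253 to 2186 CPM in Control. Microglial and myeloid markers summed to 122, 22.6 and 313 CPM in EAE replicates 1, 2 and 3 and to 16.9 to 21.5 CPM in Control, with 3 of 9 tested genes called higher and none at 0 in either group. Markers of T cells and natural killer cells, of which 0 of 10 had enough reads to be tested, summed to 2.14, 0.633 and 23.3 CPM in EAE replicates 1, 2 and 3 and to 0.362 to 0.879 CPM in Control, where Cd3d, Cd3e, Cd3g, Cd4, Ncr1 and Il2rb had no read, as Cd8a had none in EAE. Neuron markers summed to 51.0 to 111 CPM in EAE and 17.2 to 31.1 CPM in Control, with Tubb3 called higher among 5 tested and Slc17a6 at 0 in both groups. The median log2 fold change of these 5 neuron markers was -0.23, so the sum did not stand for the whole list. Astrocyte markers summed to 253 to 349 CPM in EAE and 219 to 418 CPM in Control, with Gfap called higher (8.81-fold, adjusted p = 0.00876) among 7 tested and none at 0. Schwann cell and fibroblast markers summed to 127 to 296 CPM in EAE and 124 to 217 CPM in Control. Of these, 0 of 4 tested were called, the median log2 fold change was -1.66 and Col1a1 was at 0 in Control. In bulk libraries of this kind fewer cells of a type and less RNA per cell cannot be told apart.

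**Figure D1:**
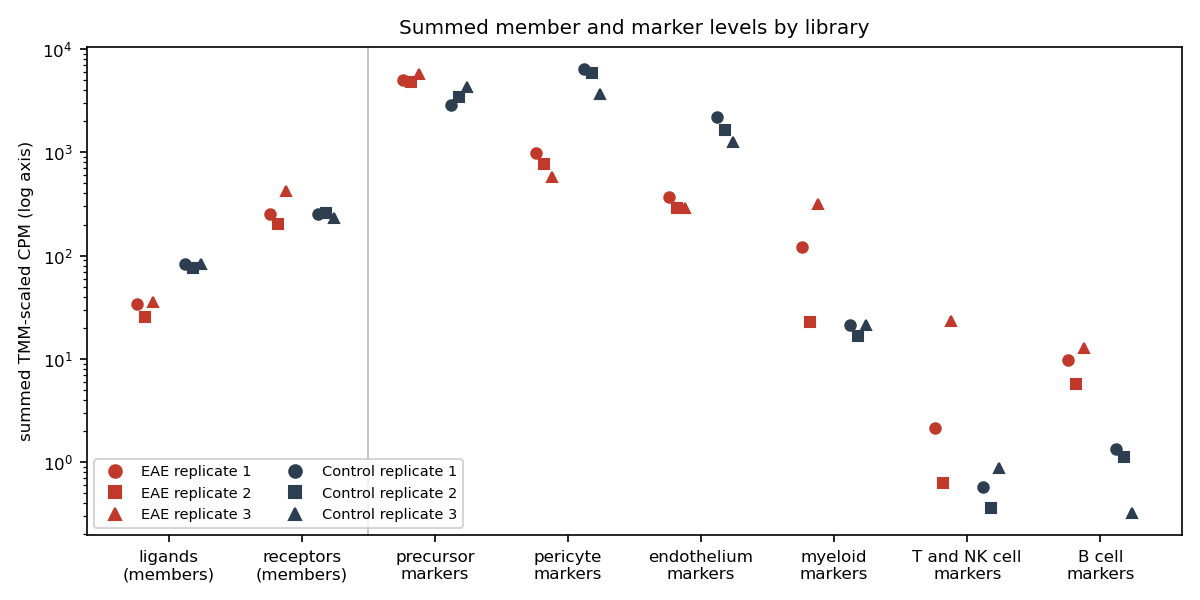
Summed TMM-scaled CPM (log axis) of the ligand members, the receptor members and 6 marker lists in each library, with EAE in red and Control in dark blue and 1 symbol per replicate number. The ligand sums were 25.7 to 35.3 CPM in EAE and 75.5 to 83.5 CPM in Control, and pericyte and endothelial marker sums were also lower in every EAE library. EAE replicate 3 held the highest receptor, precursor, myeloid, T cell and B cell sums.

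Of the 48 members, 27 had enough reads to be tested and 21 did not. The edgeR quasi-likelihood test called 5 members at a Benjamini-Hochberg adjusted p under 0.05 over all genes, 18.5% of those tested, where 7.14% of all 16966 tested genes were called. The receptor gene Tnfrsf1b was higher in EAE (1 member, 3.70% of those tested, against 2.82% of all genes called higher). The ligand genes Tnfsf10, Tnfsf12 and Tnfsfm13 and the receptor gene Tnfrsf19 were lower (4 members, 14.8%, against 4.33% of all genes called lower). Tnfsf12 and Tnfsfm13 share exons, so these 4 stand for 3 loci. The CPM ranges of the groups did not overlap with EAE above Control for 6 members, 22.2% of those tested, where 13.4% of all genes did so, and with EAE below Control for 7 members, 25.9%, where 13.4% of all genes did so. An unadjusted p under 0.05 was reached by 12 of the 27 tested members and by 20.2% of all tested genes. The median log2 fold change was -0.50 over the tested members and 0.004 over all genes. Among the tested members 17 had their highest EAE value in replicate 3, 63.0% against 39.9% of all genes.

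**Figure D2:**
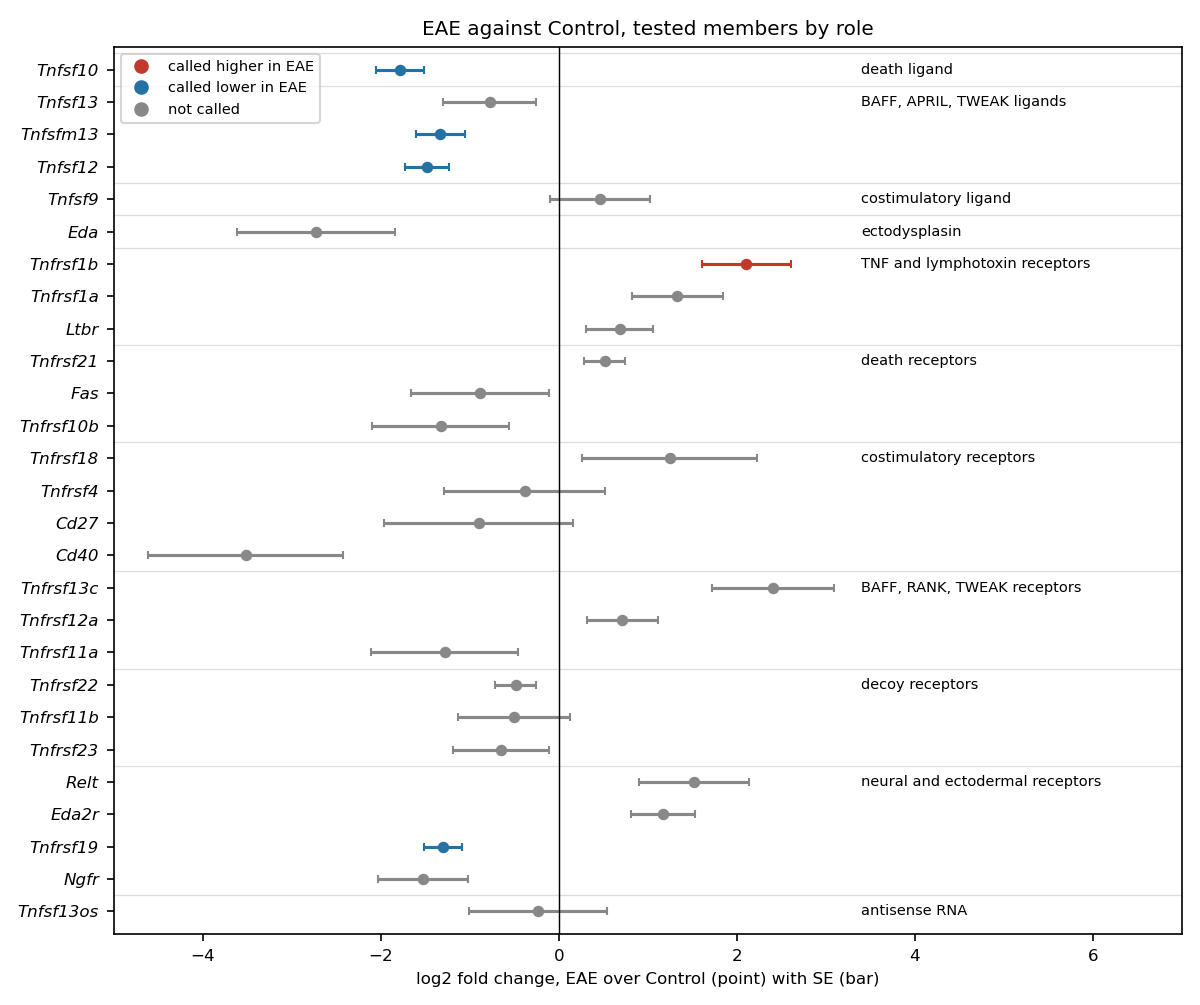
Log2 fold change of EAE over Control (point) with its SE (bar) for the 27 tested members, grouped by role and ordered within each role, for 3 libraries per group. Tnfrsf1b, in red, was called higher at 2.11, and Tnfsf10, Tnfsf12, Tnfsfm13 and Tnfrsf19, in blue, were called lower at -1.79 to -1.30, while grey members were not called.

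Among the receptors for TNF and lymphotoxin, Tnfrsf1b was the member called higher. Tnfrsf1b (ENSMUSG00000028599, chromosome 4, 145213463 to 145246870, minus strand, GRCm38) encodes TNF receptor 2, which has no death domain and responds best to membrane-bound TNF. It had 9.91, 12.7 and 22.4 CPM in EAE replicates 1, 2 and 3, against 2.51, 5.996 and 1.90 CPM in Control replicates 1, 2 and 3. Every EAE library was above every Control library, and EAE replicate 3 was the highest. The level was 4.31-fold higher in EAE (log2 fold change 2.11 ± 0.50, SE, adjusted p = 0.0393; 15.0 ± 6.56 CPM in EAE and 3.47 ± 2.21 CPM in Control, SD, n = 3 each). This call held when Control replicate 2 was left out, where the fold was 6.78, and was lost when any other library was left out, with log2 fold changes from 1.71 to 2.36 and adjusted p from 0.0593 to 0.151. Myeloid marker sums were 122, 22.6 and 313 CPM in EAE replicates 1, 2 and 3 and at most 21.5 CPM in Control. The part of myeloid cells in the change of Tnfrsf1b was not tested.

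The window from 250 bases before to 50 after the start of Tnfrsf1b (RefSeq, GRCm38.p6, chr4:145246821-145247120, minus strand, shown as transcribed) is given because it was the window among called members that held an interferon-stimulated response element. Capitals mark that match.
Tnfrsf1b: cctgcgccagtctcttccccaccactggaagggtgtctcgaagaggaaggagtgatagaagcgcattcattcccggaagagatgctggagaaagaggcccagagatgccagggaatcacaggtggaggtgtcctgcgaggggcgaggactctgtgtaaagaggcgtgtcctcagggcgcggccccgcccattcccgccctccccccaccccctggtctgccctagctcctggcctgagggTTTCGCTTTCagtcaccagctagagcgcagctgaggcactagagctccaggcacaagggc
The element was searched as TTTCNNTTTC on either strand, which reads GAAANNGAAA on the other, and 3.44% of all 32851 windows of this length held it. Windows were found for 37 of the 48 members, 41 windows in all. The element was in 4 of these windows (9.76%), those of Tnfrsf1b, Tnfrsf14, Tnfrsf17 and Tnfsf13b. The match in Tnfrsf1b began 10 bases before the start. The kappa B consensus, the binding motif of NF-kB, was searched in the same way and was in 4 windows (9.76%, against 8.46% of all windows), those of Ltb, Tnfrsf8, Tnfrsf9 and Tnfrsf25. None of the called members with a window held the kappa B consensus, which says only that these letters are not in the windows.

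Tnfrsf1a (ENSMUSG00000030341, chromosome 6, 125349362 to 125362484) encodes TNF receptor 1, which carries a death domain and binds soluble TNF. It had 21.1, 13.5 and 59.4 CPM in EAE replicates 1, 2 and 3, against 13.5, 15.3 and 8.51 CPM in Control replicates 1, 2 and 3. EAE replicate 3 was far above the other libraries and the groups overlapped. The log2 fold change of 1.33 ± 0.51 was not called (adjusted p = 0.177) and was 0.49 without EAE replicate 3. It was called by DESeq2 (adjusted p = 0.0427), which called 5.66% of genes higher and 7.12% lower. Ltbr, the lymphotoxin beta receptor, had 9.98, 10.1 and 19.7 CPM in EAE, against 9.95, 9.58 and 5.28 CPM in Control. The groups were separated by a small margin and the log2 fold change of 0.68 ± 0.38 was not called (adjusted p = 0.370). The ratio of Tnfrsf1b to Tnfrsf1a in reads per kilobase was 0.318, 0.637 and 0.256 in EAE replicates 1, 2 and 3 and 0.126, 0.265 and 0.151 in Control replicates 1, 2 and 3. These ranges overlapped, and Tnfrsf1a was the more abundant per length in each of the 6 libraries. Tnfrsf14, the receptor of LIGHT and lymphotoxin alpha, had 10, 0 and 163 reads in EAE and 1, 1 and 34 in Control, in too few libraries to be tested, with most reads in EAE replicate 3.

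**Figure D3:**
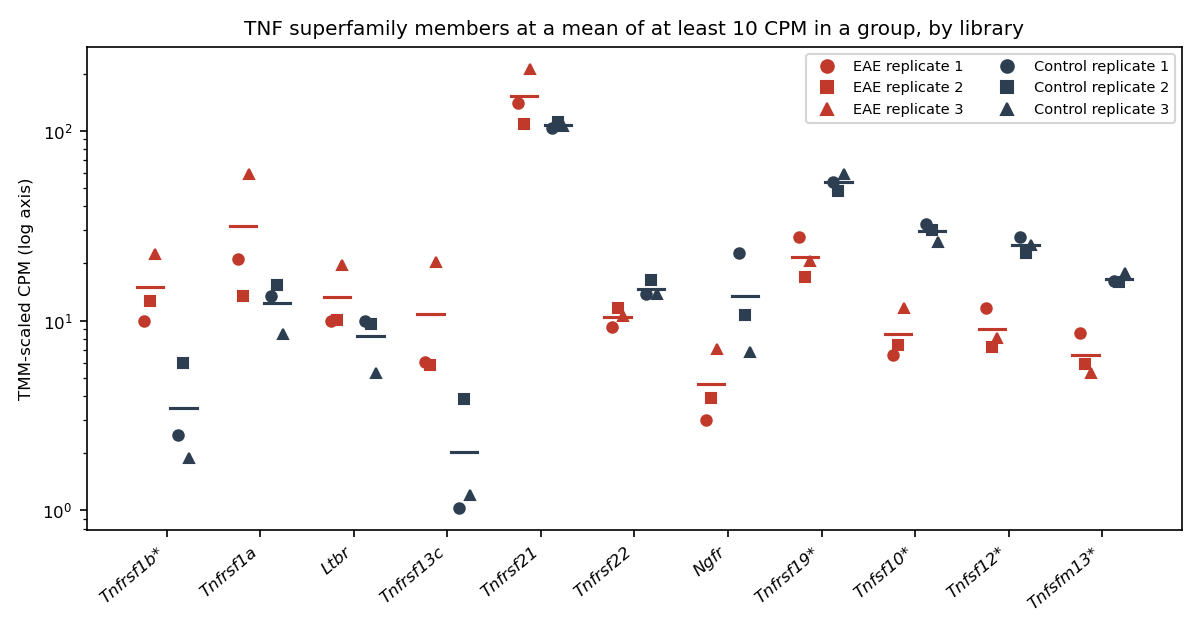
TMM-scaled CPM (log axis) in each library of the 11 tested members with a mean of at least 10 CPM in a group, EAE in red left of Control in dark blue, with 1 symbol per replicate number and a line at the group mean; an asterisk marks a called member. Control libraries of Tnfrsf19, Tnfsf10, Tnfsf12 and Tnfsfm13 lie close together and above all EAE libraries, and EAE replicate 3 is the highest EAE library for Tnfrsf1b, Tnfrsf1a, Ltbr, Tnfrsf13c, Tnfrsf21, Ngfr and Tnfsf10.

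Among the ligands, 6 of 19 were tested and 3 were called lower by edgeR. None was called higher by edgeR, DESeq2 or limma-voom, and 0 were higher at an unadjusted p under 0.05. Tnfsf10 (ENSMUSG00000039304, chromosome 3, 27317028 to 27342427, plus strand) encodes TRAIL, a ligand that can induce apoptosis through death receptors. It had 6.60, 7.42 and 11.6 CPM in EAE replicates 1, 2 and 3, against 32.4, 30.1 and 26.1 CPM in Control replicates 1, 2 and 3. All EAE libraries were far below all Control libraries. Tnfsf10 fell 3.45-fold (log2 fold change -1.79 ± 0.27, adjusted p = 0.00621; 8.55 ± 2.70 CPM in EAE and 29.5 ± 3.23 CPM in Control, SD, n = 3 each) and was called whichever library was left out (adjusted p up to 0.0381).

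Tnfsf12 (ENSMUSG00000097328, chromosome 11, 69686250 to 69695849, minus strand) encodes TWEAK, the ligand of the receptor Fn14. It had 11.6, 7.30 and 8.14 CPM in EAE replicates 1, 2 and 3, against 27.4, 22.8 and 25.1 CPM in Control replicates 1, 2 and 3. The groups did not overlap, and Tnfsf12 fell 2.78-fold (log2 fold change -1.48 ± 0.25, adjusted p = 0.00971), a call lost without Control replicate 1 (adjusted p = 0.0524). Tnfsfm13 (ENSMUSG00000018752, chromosome 11, 69682577 to 69696098, minus strand) is annotated as a gene that joins Tnfsf12 to its neighbour Tnfsf13. Tnfsfm13 had 8.62, 5.92 and 5.32 CPM in EAE, against 16.1, 16.0 and 17.7 CPM in Control. It fell 2.51-fold (log2 fold change -1.33 ± 0.27, adjusted p = 0.0219), and this call was lost without EAE replicate 2 or any 1 Control library (adjusted p 0.0524 to 0.0806). Other genes cover 78.1% of the exonic bases of Tnfsfm13 and 48.2% of those of Tnfsf12, so reads of these genes cannot be told apart with certainty and their decreases are not independent. Tnfsf13, which encodes the B cell survival ligand APRIL, had 3.43, 1.08 and 2.09 CPM in EAE and 4.56, 3.10 and 3.66 CPM in Control, with overlapping groups and no call (log2 fold change -0.78 ± 0.52, adjusted p = 0.476). Other genes cover 60.0% of its exonic bases. The antisense Tnfsf13os had 0.484 to 1.25 CPM in EAE and 0.416 to 1.44 CPM in Control (log2 fold change -0.23 ± 0.78, adjusted p = 0.912), and whether the counting used strand is not given in the sources used here.

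Promoter windows of the members that fell together are shown for comparison with each other (RefSeq, GRCm38.p6, as transcribed). They lie at chr3:27316827-27317126 on the plus strand for Tnfsf10, chr11:69696049-69696348 on the minus strand for Tnfsfm13 and chr14:61046806-61047105 on the minus strand for Tnfrsf19, a receptor gene described next, which has another window farther downstream that is not shown. No window is shown for Tnfsf12. None of these held the kappa B consensus or the response element, so no base is in capitals.
Tnfsf10: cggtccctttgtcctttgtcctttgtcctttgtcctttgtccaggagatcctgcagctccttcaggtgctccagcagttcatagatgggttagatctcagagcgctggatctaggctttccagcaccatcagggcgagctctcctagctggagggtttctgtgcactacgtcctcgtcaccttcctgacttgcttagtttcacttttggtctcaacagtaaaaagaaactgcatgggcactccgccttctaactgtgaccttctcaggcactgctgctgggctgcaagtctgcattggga
Tnfsfm13: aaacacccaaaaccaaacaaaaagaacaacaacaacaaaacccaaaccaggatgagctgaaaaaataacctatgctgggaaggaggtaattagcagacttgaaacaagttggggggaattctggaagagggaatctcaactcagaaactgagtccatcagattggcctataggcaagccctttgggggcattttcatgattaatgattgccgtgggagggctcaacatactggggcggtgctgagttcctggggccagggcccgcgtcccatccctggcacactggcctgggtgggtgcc
Tnfrsf19: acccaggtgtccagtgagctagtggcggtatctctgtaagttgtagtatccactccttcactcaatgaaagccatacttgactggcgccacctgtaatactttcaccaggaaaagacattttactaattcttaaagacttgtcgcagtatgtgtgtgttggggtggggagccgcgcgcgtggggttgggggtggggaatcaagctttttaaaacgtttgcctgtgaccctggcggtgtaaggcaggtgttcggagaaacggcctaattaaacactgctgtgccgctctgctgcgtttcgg
Their content of G and C was 52.3%, 50.7% and 51.0% for Tnfsf10, Tnfsfm13 and Tnfrsf19, near the median of all windows of 52.7%, while that of Tnfrsf1b was 62.7%. The downstream window of Tnfrsf19 was at 60.7%, nearer to that of Tnfrsf1b. The window of Tnfrsf19 held 14 CpG dinucleotides, that of Tnfsf10 held 6 and that of Tnfsfm13 held 4, against a median of 7 over all windows.

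The other tested ligands were Tnfsf9 and Eda, and neither was called. Tnfsf9, the costimulatory ligand of 4-1BB, had 2.25, 2.98 and 4.72 CPM in EAE and 1.93, 1.29 and 4.03 CPM in Control, with overlapping groups (log2 fold change 0.46 ± 0.56, adjusted p = 0.728), and another gene covers 14.9% of its exonic bases. Eda, which encodes ectodysplasin, a ligand of skin appendage development, had 0.737, 0.186 and 0.199 CPM in EAE and 0.986, 1.81 and 4.72 CPM in Control. All EAE libraries were lower, but the spread within Control was wide (log2 fold change -2.73 ± 0.89, adjusted p = 0.115), and DESeq2 called it lower (adjusted p = 0.0231). The ligand sums were lower in every EAE library, as pericyte and endothelial marker sums were. The part of vessel cells in the decreases of Tnfsf10, Tnfsf12 and Tnfsfm13 was not tested.

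Tnfrsf19 was the receptor gene called lower. It encodes TROY (ENSMUSG00000060548, chromosome 14, 60963875 to 61046490, minus strand), which can stand in for the p75 neurotrophin receptor in the Nogo receptor complex of neurons. It had 27.5, 17.1 and 20.7 CPM in EAE replicates 1, 2 and 3, against 53.4, 48.2 and 58.9 CPM in Control replicates 1, 2 and 3. The groups were well separated. Tnfrsf19 fell 2.46-fold (log2 fold change -1.30 ± 0.21, adjusted p = 0.00885; 21.7 ± 5.29 CPM in EAE and 53.5 ± 5.35 CPM in Control, SD, n = 3 each) and was called whichever library was left out (adjusted p up to 0.0467). Ngfr, the p75 neurotrophin receptor itself, had 2.98, 3.91 and 7.08 CPM in EAE and 22.7, 10.8 and 6.80 CPM in Control. EAE replicate 3 was just above Control replicate 3, and the log2 fold change of -1.52 ± 0.50 was not called (adjusted p = 0.120), though DESeq2 called it lower (adjusted p = 0.0252). The part of vessel cells, Schwann cells or fibroblasts in the values of Tnfrsf19 and Ngfr was not tested.

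Of the other neural and ectodermal receptors, Eda2r and Relt were not called by edgeR and Edar was not tested. Eda2r, the receptor of ectodysplasin A2, had 7.63, 5.14 and 8.07 CPM in EAE, against 2.84, 3.66 and 2.73 CPM in Control. Its groups did not overlap (log2 fold change 1.17 ± 0.36, adjusted p = 0.0943), and DESeq2 called it higher (adjusted p = 0.0277). Relt, a receptor found in lymphoid tissue, had 3.13, 2.46 and 9.14 CPM in EAE and 0.945, 1.97 and 2.22 CPM in Control, with EAE replicate 3 the highest and no call (log2 fold change 1.52 ± 0.62, adjusted p = 0.209). Edar, the ectodysplasin A1 receptor, had 0, 7 and 1 reads in EAE and none in Control.

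None of the 4 members grouped here as death receptors, Fas, Tnfrsf10b, Tnfrsf21 and Tnfrsf25, was called. Of the 3 tested, 0 were at an unadjusted p under 0.05 and 0 were called by DESeq2. Tnfrsf1a, which also carries a death domain, and Ngfr were grouped in other roles. DESeq2 called Tnfrsf1a higher (adjusted p = 0.0427) and Ngfr lower (adjusted p = 0.0252). Tnfrsf21 (ENSMUSG00000023915, chromosome 17, 43016555 to 43089189, plus strand) encodes death receptor 6, which in mice restrains the maturation of oligodendrocytes. It had 140, 108 and 212 CPM in EAE replicates 1, 2 and 3, against 104, 112 and 106 CPM in Control replicates 1, 2 and 3. EAE replicate 2 lay within the narrow Control range and replicate 3 far above it, and the log2 fold change of 0.52 ± 0.23 was not called (adjusted p = 0.252). Tnfrsf21 took 50% to 55.1% of all receptor CPM in EAE libraries and 41.3% to 45.7% in Control libraries, a share that also depends on the other receptors, among them Tnfrsf19, which fell. Fas, the receptor of Fas ligand, had 1.51, 0.298 and 3.32 CPM in EAE and 4.07, 3.54 and 1.90 CPM in Control (log2 fold change -0.89 ± 0.78, adjusted p = 0.607). Tnfrsf10b, the mouse death receptor for TRAIL, had 0.847, 0.782 and 2.72 CPM in EAE and 1.03, 3.78 and 6.16 CPM in Control (log2 fold change -1.32 ± 0.77, adjusted p = 0.396). Both sets of groups overlapped. Tnfrsf25, or death receptor 3, had 8, 1 and 6 reads in EAE and 6, 25 and 0 in Control and was not tested.

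The decoy receptors for TRAIL, Tnfrsf22 and Tnfrsf23, are close paralogs on chromosome 7 and can share reads. Tnfrsf22 had 9.28, 11.6 and 10.6 CPM in EAE, against 13.8, 16.4 and 13.8 CPM in Control. The groups did not overlap but the difference was small (log2 fold change -0.48 ± 0.23, adjusted p = 0.298). Tnfrsf23 was at 1.36 to 4.52 CPM in EAE and 3.52 to 4.14 CPM in Control (log2 fold change -0.65 ± 0.54, adjusted p = 0.584). Osteoprotegerin, the decoy receptor of RANK ligand encoded by Tnfrsf11b, was at 1.12 to 2.43 CPM in EAE and 1.45 to 4.77 CPM in Control (log2 fold change -0.50 ± 0.63, adjusted p = 0.738). When each library was left out in turn, the fold of Tnfrsf11b ran from 0.577 to 1.18, and Tnfrsf4 and Tnfsf13os also changed sign.

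Among receptors of the BAFF, RANK and TWEAK ligands, 0 of 3 tested were called by edgeR and 1 had an unadjusted p under 0.05. Tnfrsf13c (ENSMUSG00000068105, chromosome 15, 82221743 to 82224369, minus strand) encodes the BAFF receptor, known for B cell survival. It had 6.08, 5.85 and 20.4 CPM in EAE replicates 1, 2 and 3, against 1.03, 3.86 and 1.20 CPM in Control replicates 1, 2 and 3. Every EAE library was above every Control library. The log2 fold change was 2.40 ± 0.69, larger than that of Tnfrsf1b, at an adjusted p of 0.0761, and DESeq2 called it higher (adjusted p = 0.00275). Without 1 library its fold ran from 2.95 to 9.63 and its adjusted p from 0.0584 to 0.219. B cell and plasma cell markers summed to 9.73, 5.74 and 12.9 CPM in EAE replicates 1, 2 and 3 and to 0.324 to 1.36 CPM in Control. Of the 8 markers 1 was tested, the immunoglobulin heavy chain gene Ighm, which was called higher (8.74 ± 3.50 CPM in EAE and 0.217 ± 0.191 CPM in Control, SD, n = 3 each, adjusted p = 0.00745). The B cell marker Pax5 had no read in EAE. The part of B lineage cells in the values of Tnfrsf13c was not tested.

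Tnfrsf12a, which encodes Fn14, the receptor of the TWEAK ligand that fell, had 3.46, 6.11 and 4.65 CPM in EAE, against 2.88, 3.34 and 2.45 CPM in Control. Its groups were separated by a small margin and it was not called (log2 fold change 0.71 ± 0.40, adjusted p = 0.380). Tnfrsf11a, which encodes RANK, was at 0.186 to 2.23 CPM in EAE and 1.57 to 4.19 CPM in Control (log2 fold change -1.28 ± 0.83, adjusted p = 0.456).

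Of the costimulatory receptors 4 of 6 were tested and none was called, with 1 at an unadjusted p under 0.05. That 1 was Cd40, which on antigen-presenting cells receives the signal of T cell CD40 ligand. Cd40 had 0.405, 0 and 0.399 CPM in EAE replicates 1, 2 and 3, against 2.43, 5.68 and 1.30 CPM in Control replicates 1, 2 and 3. These are 11, 0 and 12 reads against 59, 141 and 28, and all EAE libraries were below all Control libraries. The log2 fold change of -3.52 ± 1.09 was the lowest of the tested members, with an adjusted p of 0.101, and DESeq2 called it (adjusted p = 0.00537). Tnfrsf18, or GITR, was at 1.60 to 4.42 CPM in EAE and 0.0463 to 2.59 CPM in Control (log2 fold change 1.25 ± 0.98, adjusted p = 0.559), and another gene covers 27.2% of its exonic bases. Cd27 and Tnfrsf4, which encodes OX40, were at most at 1.34 CPM in any library, with adjusted p of 0.719 and 0.873.

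Levels can be compared between genes as RPKM, which is CPM per kilobase of gene, computed with the feature length deposited in the table. This length equals the union of annotated exons for 30 of the 48 members and was 0.135 to 1.99 times that union for the others, with Tnfsf12 at the upper end. Tnfrsf21 ranked first in both groups, at 42.2 ± 14.6 RPKM in EAE and 29.5 ± 1.14 RPKM in Control (SD, n = 3 each here and below). Tnfrsf19 ranked 6 in EAE and 2 in Control, at 4.55 ± 1.11 RPKM in EAE and 11.2 ± 1.12 RPKM in Control. Tnfsf12 ranked 8 in EAE and 3 in Control, at 2.99 ± 0.756 RPKM in EAE and 8.32 ± 0.761 RPKM in Control. With the annotated exon length, a setting added after the data were seen, Tnfsf12 ranked 3 in EAE and 2 in Control, at 5.95 ± 1.51 RPKM in EAE and 16.6 ± 1.52 RPKM in Control, above Tnfrsf19 in both groups. Tnfsf10 ranked 13 in EAE and 5 in Control, at 1.62 ± 0.513 RPKM in EAE and 5.61 ± 0.612 RPKM in Control. Tnfrsf1a ranked 2 in EAE at 12.1 ± 9.50 RPKM and had 4.80 ± 1.36 RPKM in Control. In EAE the SD ranges of Tnfrsf1a, Ltbr (5.64 ± 2.38), Tnfrsf13c (5.35 ± 4.14), Tnfrsf12a (4.92 ± 1.38), Tnfrsf19 and Tnfrsf1b (3.93 ± 1.72) overlapped. Within libraries, Tnfrsf1a was above Ltbr, Tnfrsf13c, Tnfrsf19 and Tnfrsf1b in each EAE library. With the deposited length it was below Tnfrsf12a in EAE replicate 2 (5.206 against 6.345 RPKM). With the annotated exon length Tnfrsf12a ranked 11 in EAE and 13 in Control, at 2.45 ± 0.686 RPKM in EAE and 1.496 ± 0.230 RPKM in Control. Tnfrsf1b ranked 7 in EAE and 19 in Control, where it was at 0.908 ± 0.579 RPKM.

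**Figure D4:**
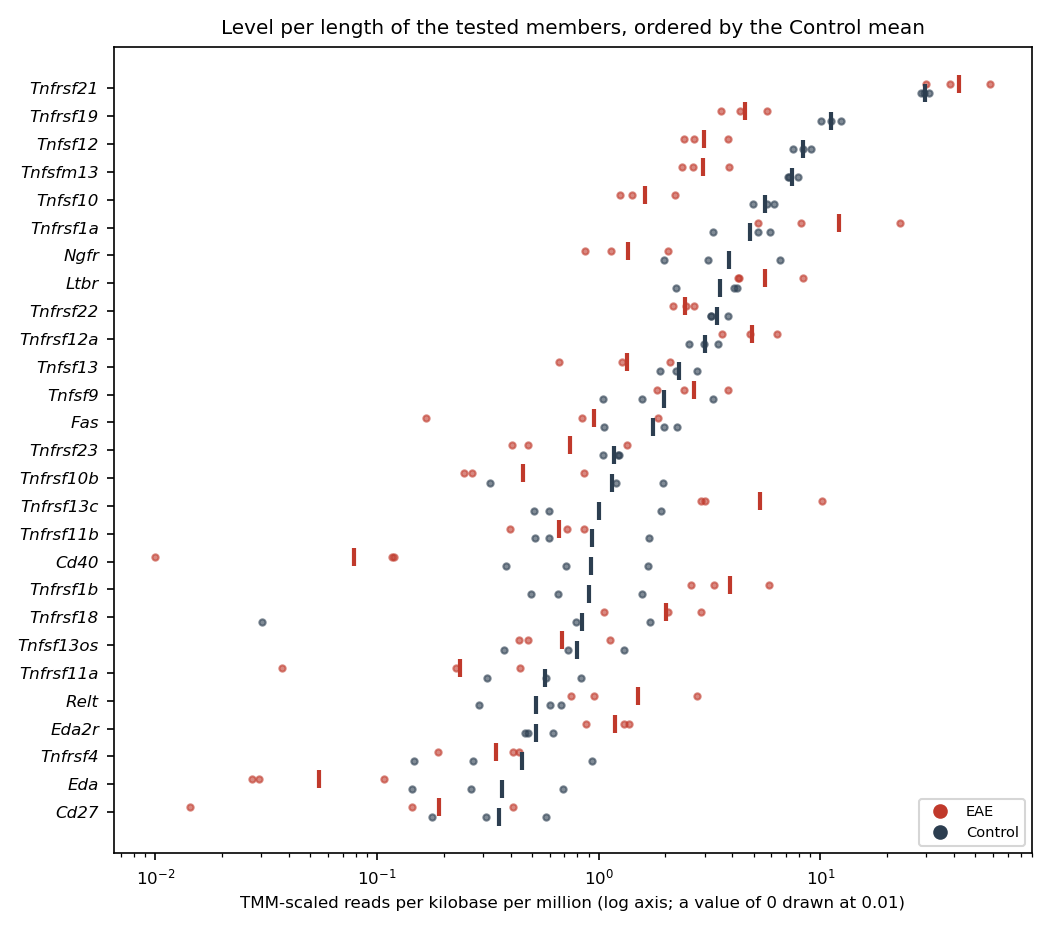
TMM-scaled RPKM (log axis) of the 27 tested members, ordered by the Control mean with the highest at the top. Points are libraries and ticks are group means, EAE in red above Control in dark blue. Tnfrsf21 is highest in both groups, and the next 4 members in Control order have all EAE points to the left of all Control points.

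The 21 members not tested include 13 of the 19 ligand genes. Tnf itself had 3, 0 and 2 reads in EAE replicates 1, 2 and 3 and 0, 6 and 2 in Control replicates 1, 2 and 3. At these depths a count of 0 is compatible with up to 3 reads, which covers counting error only, so a change of Tnf was not detectable. Lta had 4, 0 and 0 reads in EAE and 0, 0 and 12 in Control, and Ltb had 2, 0 and 2 in EAE and none in Control. Another 3 ligands, Tnfsf4, Tnfsf14 and Tnfsf18, had no read in any library.

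Of the 7 members with reads in EAE and none in Control, 4 are further ligands. Tnfsf11, or RANK ligand, had 3, 14 and 7 reads in EAE, so each EAE library was above Control. The 3 reads in EAE replicate 1 lie within what a count of 0 allows, so this separation is not beyond counting error. Fasl, the death ligand of cytotoxic lymphocytes, had 0, 6 and 17 reads in EAE. Cd40lg, the CD40 ligand of helper T cells, had 0, 0 and 24, and Tnfsf8, the CD30 ligand, had 6, 0 and 24. EAE replicate 3 held most reads of Fasl, Cd40lg and Tnfsf8, and it was also the library with the highest T cell marker sum. The part of T cells in these reads was not tested. Tnfrsf9, the receptor 4-1BB of activated lymphocytes, had 0, 0 and 28 reads in EAE and 0, 23 and 0 in Control. Tnfsf13b, which encodes BAFF, had 0, 1 and 21 reads in EAE and 2, 0 and 17 in Control, and Tnfrsf26 had 3, 0 and 41 in EAE and 0, 2 and 0 in Control. Cd70, the ligand of Cd27, had reads in Control alone, 0, 1 and 12.

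**Figure D5:**
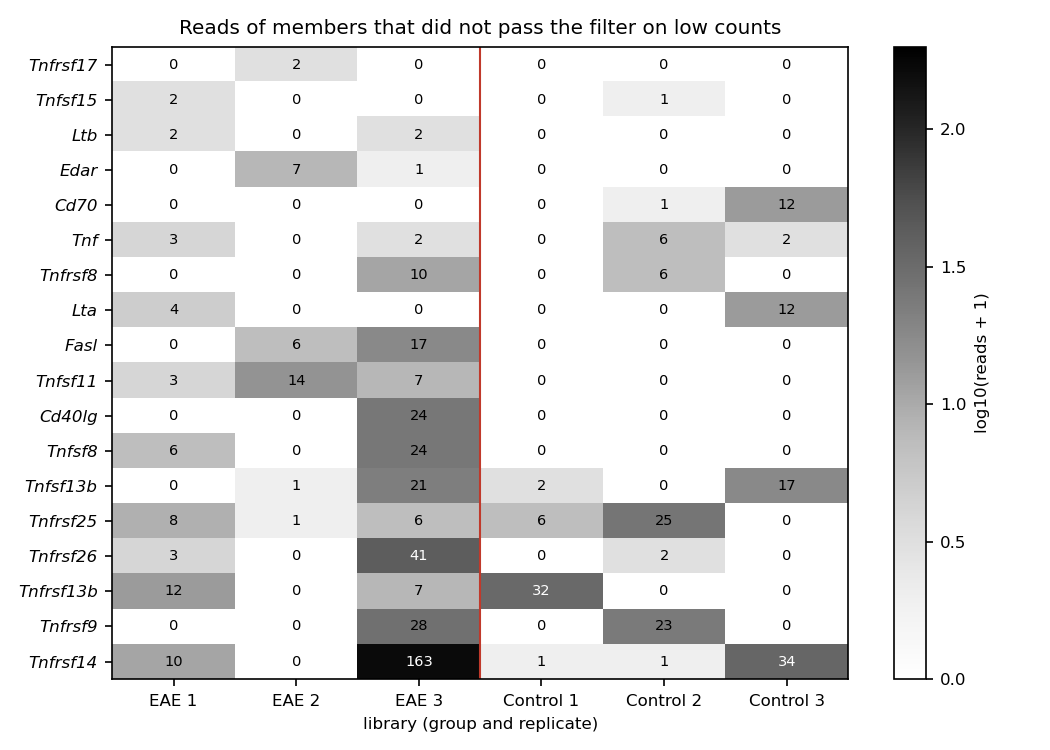
Reads in each library of the 18 members that did not pass the filter and had at least 1 read, with EAE libraries left of the red line and Control libraries right of it; shading is log10(reads + 1). Most entries are under 10 reads, and Tnfrsf14 in EAE replicate 3, at 163, is the largest.

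Downstream of the receptors, the genes of adaptors, kinases and death effectors showed no edgeR call among 28 tested, where 7.14% of all genes were called. An unadjusted edgeR p under 0.05 was reached by 4 of the 28, against 20.2% of all genes. DESeq2 called 2 of the 28 (Mlkl and Tab1), where it called 5.66% of all genes higher and 7.12% lower, and limma-voom called 0. The median log2 fold change of the 28 genes was 0.19, against 0.004 over all genes. Of 13 tested NF-kB subunits and inhibitors, 1 rose, where 2.82% of all genes were called higher, and the median was 0.19. Bcl3, a nuclear partner of NF-kB subunits, had 9.25, 13.1 and 53.5 CPM in EAE and 2.34, 2.94 and 2.04 CPM in Control. All EAE libraries were above Control, and Bcl3 was 10.3-fold higher (log2 fold change 3.37 ± 0.65, adjusted p = 0.0171). The call of Bcl3 was lost without any 1 Control library (adjusted p up to 0.0908), its fold was 4.61 without EAE replicate 3, and another gene covers 6.51% of its exonic bases. DESeq2 called Bcl3 and also Nfkbia, the inhibitor that holds NF-kB in the cytoplasm, which edgeR did not call. Nfkbia had 6.60, 6.93 and 7.05 CPM in EAE and 10.7, 11.5 and 17.3 CPM in Control, with all EAE libraries below Control (log2 fold change -0.94 ± 0.28, adjusted p = 0.0924, 0.0278 by DESeq2).

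Of 17 tested genes known to be induced by TNF, 3 rose, against 2.82% of all genes called higher, and the median log2 fold change was 1.17. Csf1, the macrophage growth factor, had 138, 143 and 289 CPM in EAE and 57.9, 60.3 and 87.3 CPM in Control (log2 fold change 1.47 ± 0.31, adjusted p = 0.0238), and leaving out Control replicate 1 or 2 ended the call (highest adjusted p = 0.115). Cxcl10, an interferon-inducible chemokine, had 2.91, 2.79 and 81.5 CPM in EAE and at most 0.206 CPM in Control (adjusted p = 0.0339), with nearly all of its EAE level in replicate 3. Bcl2a1b, a survival gene of the Bcl2 family, had 0.884, 0.522 and 7.11 CPM in EAE and no read in Control (adjusted p = 0.0370). The calls of Cxcl10 and Bcl2a1b were each lost without any 1 Control library (adjusted p up to 0.151 and 0.110), and that of Bcl2a1b also without EAE replicate 1 or 3. Values of Bcl2a1b are uncertain because close paralogs can share its reads and another gene covers 49.1% of its exonic bases, as 5.91% are in Cxcl10. The other 14 tested genes were not called by edgeR. DESeq2 called 6 of the 17, with Csf1, Bcl2a1b, Gadd45b, Irf1 and Lcn2 higher and Ier3 lower, and gave no adjusted p for Cxcl10. Over all genes DESeq2 called 5.66% higher and 7.12% lower. Ier3, an immediate early gene, had 5.45, 6.22 and 8.11 CPM in EAE and 15.3, 11.5 and 15.3 CPM in Control, with all EAE libraries below Control (log2 fold change -1.09 ± 0.28, adjusted p = 0.0519, 0.00578 by DESeq2). Of Bcl3, Csf1, Cxcl10 and Bcl2a1b, limma-voom called Csf1. EAE replicate 3 was the highest EAE library for 13 of the 17 tested TNF-inducible genes. The part of that library's myeloid and T cell markers in these values was not tested.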

How the data were processed

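RNA was measured in 6 bulk libraries, 3 EAE and 3 Control, grouped by the sample titles. Raw read counts for each Ensembl gene, beside a feature length in base pairs, were deposited by the authors. The submitters' processing notes name FastQC, STAR, featureCounts, edgeR 3.24.3 and mm10, with no roles. Settings, annotation release and use of strand: not given in the sources used here. Symbols were matched by identifier for 36345 of 38293 genes (94.9%). Coordinates and exon overlaps came from GENCODE M21 on GRCm38, the assembly also called mm10.

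Genes were kept by filterByExpr (minimum count 10, minimum total 15) and tested with the robust, 2-sided quasi-likelihood F test of edgeR 4.0.16 after TMM scaling, in R 4.3.3, with Benjamini-Hochberg adjustment over all 16966 genes. The common biological coefficient of variation was 39.6%. Each SE is the log2 fold change divided by the square root of F. An exact test of 3 against 3 cannot give a 2-sided p under 0.1. The code was tested on simulated data. Alternatives were other scalings and filters, DESeq2 1.42.0, limma-voom (limma 3.58.1), a replicate block and leaving out each library. The members and gene lists were chosen with earlier results of these data known. Named genes were members called or with a mean of at least 10 CPM in a group, then other members as far as room allowed, and up to 6 called genes of each downstream list; genes of these lists called by DESeq2 alone, and marker genes, were named after their values were seen. RPKM used the deposited length, and the annotated exon length as an alternative.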

Additional observations from a re-analysis of the deposited data

How the results depend on the processing

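The 11 named members, those called or at a mean of at least 10 CPM in a group, kept their direction under all alternatives, and kept their side of the threshold in all 66 comparisons with other scalings, other filters or no robust dispersion. The count of all called genes was 1212 and ran from 440 to 1150 when each library was left out in turn (440 with Control replicate 1 left out, 576 with Control replicate 2 left out and 630 with EAE replicate 1 left out), that of members called higher was 1 and ran from 0 to 1, and that of members called lower was 4 and ran from 2 to 4. DESeq2 called 2162 genes, 5.66% of all genes higher and 7.12% lower. Of the 27 tested members it called 4 higher and 7 lower. The cause of this difference from edgeR was not tested. Leaving out a library ended 10 member calls in all and added 0. The labels do not say whether replicate numbers pair the libraries. Deviations of same-numbered libraries correlated at 0.0157, -0.0399 and -0.0336 across genes, and not every library correlated best with its own number. Such correlations cannot show how the libraries were prepared, so pairing is not known. With the replicate number as a block, 818 genes were called, with 0 members higher and 3 lower; Tnfsfm13 (adjusted p = 0.0572) and Tnfrsf1b (adjusted p = 0.0835) were the named members that changed side. With the annotated exon length, the RPKM of Tnfsf12, Tnfrsf12a and, in Control, Tnfrsf21 (26.1) moved beyond the SD. Scaling moved the median log2 fold change of all genes to at most 0.050. Depth limited the 21 untested members, of which the most abundant reached 163 reads in a library.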
